A study of Mus musculus with 3 samples.

Results

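The Ms4a genes encode small membrane proteins that cross the membrane several times, and most of them are known from blood and immune cells. *Ms4a1* encodes CD20, the surface protein of B cells that therapeutic antibodies bind, and *Ms4a2* encodes the beta chain of the high-affinity IgE receptor of mast cells and basophils. *Ms4a4b* is known from T and NK cells, while *Ms4a4c*, *Ms4a6b*, *Ms4a6c*, *Ms4a6d* and *Ms4a7* are known mainly from monocytes, macrophages and dendritic cells. These 8 genes, of 32285 in the count files, were followed across the immune cells of healing mouse skin. They were picked by symbol and matched by Ensembl ID, with their levels by cell class and by day in these same data already known, so all levels below are descriptions and carry no test. The files hold 11 further genes whose symbol begins with Ms4a, and the 8 members took 89.0% of the 133359 Ms4a UMIs in the cells used.

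The samples were skin wounds of male C57BL/6J mice with no transgene or drug, collected on Days 3, 7 and 14 after injury. Tissue from several wounds was pooled for each day, dissociated with an enzyme kit and loaded unsorted, so each day is 1 library and no spread between animals can be given. The 3′ ends of transcripts were counted as unique molecular identifiers (UMIs), and levels are given as counts per 1000000 UMIs (CPM) for the cells of a class in 1 library, with exact Poisson 95% intervals. These intervals cover counting error only, and every comparison below is between libraries or classes within them, not between replicated groups. After filters, 4360, 19590 and 13510 cells were used on Days 3, 7 and 14, with a median of 3511, 3217 and 5868.5 UMIs. Pairs of libraries shared 19 to 111 cell barcodes. The classes were named from fixed markers that hold no Ms4a gene, and each name means "-like". Macrophage-like cells were 62.2%, 48.2% and 23.0% of the cells on the 3 days, in numbers 2712, 9443 and 3107. All 11 macrophage markers had UMIs in them on each day, but also in dendritic cells of the *Cd209a* kind (cDC2-like). The markers summed to 13743, 17461 and 23774 CPM in macrophage-like cells and to 5176, 4197 and 5823 CPM in cDC2-like cells.

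The family lies in 1 array on mouse chromosome 19. In the mm10 build (GRCm38), the 19 genes span chr19:10962293-11640851, or 678.559 kb, and the stretch holds 22 protein-coding genes in the GENCODE annotation. The members lie in this order. *Ms4a1* (chr19:11249675-11266241) and *Ms4a7* (chr19:11321039-11336146) are on the minus strand. *Ms4a4c* (chr19:11404770-11427246), *Ms4a4b* (chr19:11443553-11467055), *Ms4a6c* (chr19:11469366-11482192) and *Ms4a6b* (chr19:11516512-11531256) follow on the plus strand. *Ms4a6d* (chr19:11586604-11604849) and *Ms4a2* (chr19:11615523-11623719) are again on the minus strand. The neighbours *Ms4a4c* and *Ms4a4b* are close copies whose highest levels on Days 7 and 14, among the ranked classes, were in different classes. These were cDC2-like cells for the first and NK cells for the second, although both were also counted in macrophage-like and dendritic cells. Their promoters are shown for that reason, from RefSeq on GRCm38.p6, plus strand, 250 bases before to 50 bases after the start of transcription. They lie at chr19:11407411-11407710 and chr19:11443308-11443607, and capitals mark the letters GGGGAAGT.
Ms4a4c: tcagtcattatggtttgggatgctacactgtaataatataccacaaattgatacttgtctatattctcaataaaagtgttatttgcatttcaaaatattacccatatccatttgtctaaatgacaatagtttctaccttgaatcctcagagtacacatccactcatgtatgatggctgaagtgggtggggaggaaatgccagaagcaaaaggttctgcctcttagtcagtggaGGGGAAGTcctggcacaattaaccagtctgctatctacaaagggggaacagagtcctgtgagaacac
Ms4a4b: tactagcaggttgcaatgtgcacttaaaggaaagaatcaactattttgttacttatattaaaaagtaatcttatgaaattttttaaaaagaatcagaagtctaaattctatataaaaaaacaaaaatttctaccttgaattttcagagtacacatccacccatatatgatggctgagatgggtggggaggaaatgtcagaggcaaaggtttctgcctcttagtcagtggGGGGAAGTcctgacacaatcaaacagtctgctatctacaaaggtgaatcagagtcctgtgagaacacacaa
In a global alignment, 226 of 300 bases (75.3%) were identical between them. *Ms4a6c* and *Ms4a6b* shared 192 of 300 bases (64.0%), and the other 19 pairs of members' promoters shared 137 to 165. RefSeq promoters were at hand for 6 of the 8 members, 7 promoters in all, and *Ms4a1* and *Ms4a6d* had no entry. Searched on both strands, GAGGAAGT (known as a PU.1 site and held by 3.2% of 32851 promoters), the interferon-stimulated response element (GAAA, 2 bases of any kind, GAAA, 3.44%), TTCNNNGAA (the interferon-gamma-activated site, 8.30%) and a C/EBP site (ATTGC followed at once by GCAAT, 0.00609%) were in none of the 7 promoters. GGGGAAGT was added to the search after the sequences had been seen. It was in 1.48% of all promoters and in 2 of the 7, those of *Ms4a4c* and *Ms4a4b*, with no other searched motif there to overlap it. Among Ms4a genes that are not members, the promoters of *Ms4a4d*, *Ms4a3* and *Ms4a19* also held it. Such matches describe the letters only.

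The plot of UMI shares along the array shows in which cells each gene was counted. *Ms4a7* had 94.5% of its 33172 UMIs in macrophage-like cells over the 3 libraries summed, beside *Ms4a6d* with 90.3%, *Ms4a6b* with 89.4%, *Ms4a6c* with 87.5% and *Ms4a4c* with 78.6%. *Ms4a4c* stood out among these 5 by the 18.0% that came from dendritic cells, against 8.04% for *Ms4a6c*. *Ms4a4b* had 49.0% of its 769 UMIs in lymphoid cells and 37.7% in macrophage-like cells, which were many more in number. The macrophage-like share on Days 3, 7 and 14 was 85.1%, 73.9% and 59.2% for *Ms4a4c*, 93.6%, 89.6% and 84.8% for *Ms4a6d* and 92.4%, 88.0% and 86.7% for *Ms4a6b*. By day, the lymphoid share of *Ms4a4b* was 8.84%, 54.1% and 76.0% and the macrophage-like share 77.9%, 31.4% and 13.3%, and the dendritic share of *Ms4a4c* was 13.9%, 20.3% and 32.7%. Lymphoid cells were 0.25%, 1.93% and 2.33% of the cells on these days. Shares of UMIs depend on the number of cells in each class as well as on the level in them. *Ms4a2* had 74.5% of 55 UMIs in mast cells. Within the same array, the non-member *Ms4a4d*, between *Ms4a6b* and *Ms4a6d*, had 97.1% of 10387 UMIs in fibroblast-like cells. Its level there was 78.0, 45.7 and 77.6 CPM on Days 3, 7 and 14, against 0.33, 1.64 and 2.24 CPM in macrophage-like cells. The fibroblast-like cells came mostly from different clusters on the 3 days, so these values are not compared. *Ms4a4a*, *Ms4a8a* and *Ms4a14* had 92.5%, 90.5% and 93.6% of their UMIs in macrophage-like cells, but fewer of them (1544, 1321 and 1354), while *Ms4a12* had 6 UMIs and *Ms4a10* had 4. The 5 others, *Ms4a3*, *Ms4a5*, *Ms4a13*, *Ms4a15* and *Ms4a18*, had no UMI in any library.

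**Figure D1:**
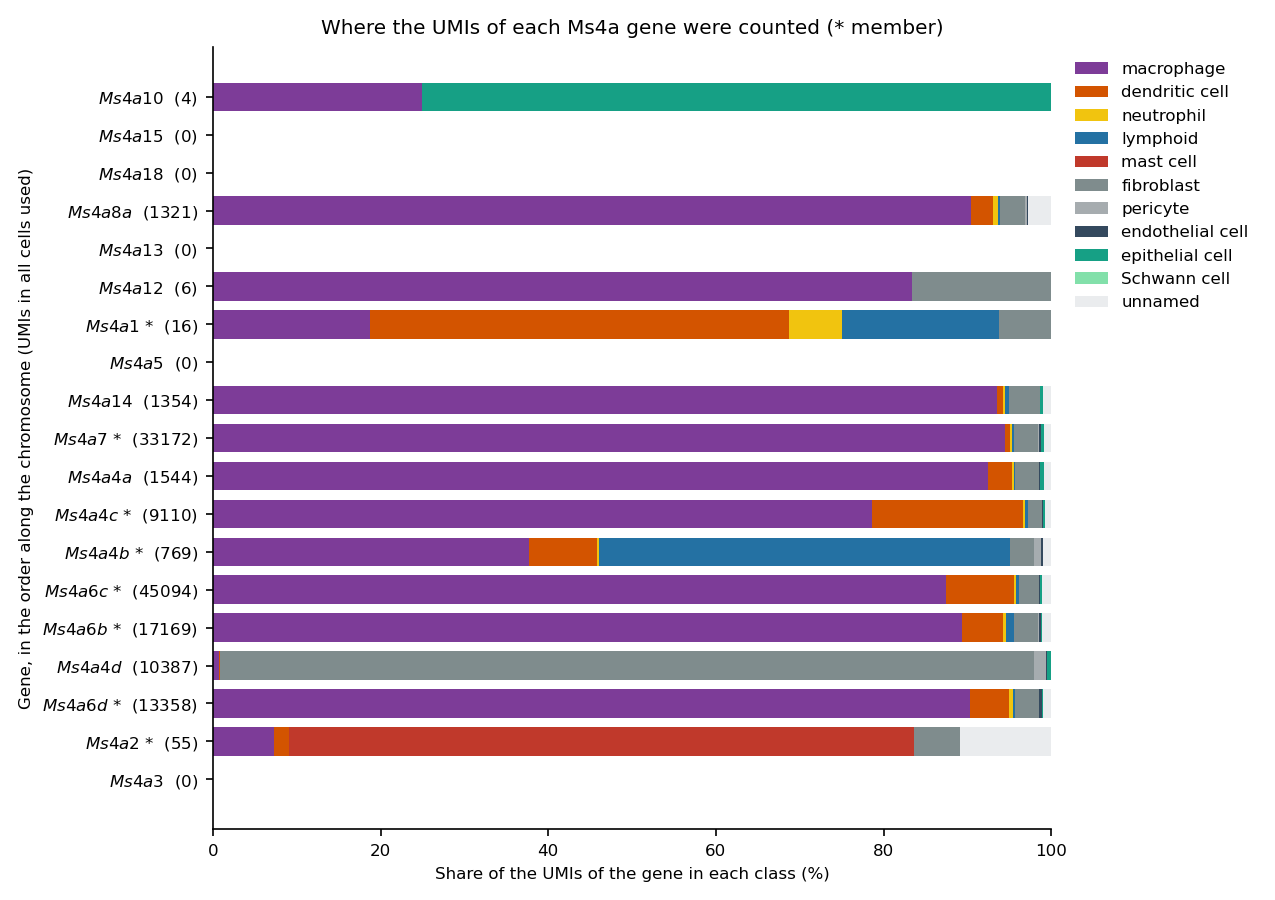
Share of the UMIs of each Ms4a gene (%, horizontal axis) by cell class, with the genes in chromosome order and the number of UMIs in parentheses, all 3 libraries summed. Macrophage-like cells hold 78.6% to 94.5% of *Ms4a7*, *Ms4a4c*, *Ms4a6c*, *Ms4a6b* and *Ms4a6d*, whereas *Ms4a4d*, lying among them, has 97.1% in fibroblast-like cells.

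*Ms4a2* was highest in mast cells. On Day 3, 2 mast cells held 6 UMIs of it. On Day 7, 33 mast cells held 9 UMIs, or 230 CPM (105 to 437), and on Day 14, 19 cells held 26, or 721 CPM (471 to 1056). The intervals of Days 7 and 14 do not overlap, but the cells are few. In the 9443 macrophage-like cells of Day 7 there were 4 UMIs. The genes most like it over 32 sums of a class and a day were *Fcer1a* (Pearson r = 0.99 of log2(CPM + 1)), the alpha chain of the same receptor, *Mrgprx2* (0.99) and *Dnase2b* (0.99). Sums needed at least 20 cells, so mast cells entered by Day 7 alone, and these r values rest above all on that sum. By Spearman rank correlation the values were 0.86, 0.62 and 0.60. These sums share libraries and differ in depth, here as for every correlation below, and no p is given. *Fcer1a* is itself a mast cell marker of the list, and its level in mast cells was 412, 230 and 305 CPM on the 3 days.

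*Ms4a1* was close to absent. It had 16 UMIs in 8 cells, and 11 of these UMIs were in 3 cells of Day 7 that also had UMIs of at least 4 of 11 B cell markers. These 3 cells lay in dendritic and lymphoid clusters and no cluster was B cell-like. The 5 other cells held 1 *Ms4a1* UMI each. Over all cells, 10 had at least 4 B cell markers, so levels of *Ms4a1* by day were not compared.

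Among the ranked classes, *Ms4a4b* was highest in NK cells on Days 7 and 14, when lymphoid cells were enough to rank. Lymphoid cells named neither NK nor T, 154 of 378 on Day 7 and 73 of 315 on Day 14, were not ranked. The 76 NK cells of Day 7 held 63 UMIs of it, or 571 CPM (439 to 731). The 73 of Day 14 held 79 UMIs, or 570 CPM (452 to 711). T cells held 119 CPM (83.3 to 165) from 36 UMIs and 125 CPM from 41 UMIs on these days. NK cells were thus 4.81-fold (log2 2.26, 95% interval 1.65 to 2.90) and 4.55-fold above T cells. Sub-cluster 2, described below, is in neither class. The sub-cluster with *Trdc* gave 2 of 148 T cells on Day 7 and 65 of 169 on Day 14. The sub-cluster with *Ctla4* and *Foxp3* gave 85 and 40 of these T cells. It held 120 CPM over the 3 libraries summed, against 349 (244 to 483) in the T cell-like sub-cluster 3 and 568 (479 to 669) in the NK sub-cluster. The part of any of these sub-clusters in the folds was not tested. Day 3 had only 11 lymphoid cells, with 16 UMIs of *Ms4a4b*, and its NK and T cells were too few to rank. Lymphoid sub-clusters differed further, in CPM over the 3 libraries summed, to which they gave unequal numbers of cells. Sub-cluster 2, which lay between T and NK cells with *Klrb1c* and *Tcf7* among its leading genes, held 810 CPM with 100 of its 122 cells from Day 7, the T cell-like sub-cluster 3 (*Icos*, *Trac*) held 349, the sub-cluster with *Ctla4* and *Foxp3* held 120, and the one with *Trdc* and *Trdv4*, marks of gamma-delta T cells, held 13.6 from 2 UMIs with 65 of its 67 cells from Day 14. The order of NK over T cells was also seen in cells thinned to 500 UMIs, where 13.2% and 20.6% of NK cells had a UMI of *Ms4a4b* on Days 7 and 14 against 4.73% and 5.92% of T cells. *Gm15472* (r = 0.93), *Klrc2* (0.90), an NK cell receptor, and *Tbx21* (0.90), the transcription factor T-bet, had the patterns most like it. By Spearman rank correlation their values were 0.77, 0.69 and 0.68, and another gene, *Ifi206* (0.80), ranked first. In macrophage-like cells it was at 11.7, 4.68 and 2.24 CPM and in cDC2-like cells at 19.9, 9.36 and 6.16 CPM. *Ms4a4b* and *Ms4a4c* share exact 90-base stretches in the last 500 bases of their transcripts (1.64% and 2.83% of such stretches). Of their 50-base stretches, 4.22% and 11.1% were found in any other gene, each in the other gene of the pair among them. A part of the myeloid *Ms4a4b* counts is therefore uncertain. Whether reads moved between the genes was not tested.

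*Ms4a4c*, *Ms4a6b*, *Ms4a6c* and *Ms4a6d* were genes of both macrophage-like and cDC2-like cells (conventional dendritic cells of the *Cd209a* kind). *Ms4a6c* was at 1430 CPM (1409 to 1452), 647 (637 to 656) and 448 (436 to 461) in macrophage-like cells on Days 3, 7 and 14, and at 1144 (1083 to 1207), 547 (517 to 579) and 561 (524 to 601) in cDC2-like cells. Over the class as a whole, macrophage-like cells were thus above cDC2-like cells on Days 3 and 7 by log2 0.32 and 0.24. They were below them on Day 14 by log2 -0.32 (-0.43 to -0.22). Clusters differed in this order. On Day 3, clusters 0 (621 CPM), 12 (1033) and 7 (1047, with 47.4% of the class) were below the cDC2-like value. So were clusters 0 (511), 12 (408) and 14 (263) on Day 7. On Day 14, cluster 3 (939) was above it and cluster 2 (562) level with it. *Ms4a4c* was higher in cDC2-like cells than in the macrophage-like class as a whole on each of the 3 days. It was at 587, 259 and 199 CPM against 356, 88.2 and 47.6 CPM, so the log2 ratio of macrophage-like to cDC2-like cells went from -0.72 to -1.55 and -2.06. Not every cluster of the macrophage-like class kept this order. Its monocyte-like cluster 15 had 654 CPM on Day 3 and 641 CPM on Day 7. Its monocyte-like cluster 3 had 363 CPM on Day 14. Each was above the cDC2-like value of that day. The 8 monocyte markers summed to 3067, 1545 and 545 CPM in cDC2-like cells, against 2644, 910 and 596 CPM in macrophage-like cells. The part of the make-up of either class in the order was not tested. *Ms4a6b* and *Ms4a6d* kept the order opposite to *Ms4a4c* over the class as a whole. *Ms4a6b* was at 454, 300 and 170 CPM in macrophage-like cells against 317, 144 and 67.1 in cDC2-like cells, and *Ms4a6d* at 354, 240 and 129 CPM against 200, 89.6 and 99.3. Some clusters were below the cDC2-like values. These were cluster 0 on Day 3 (185 CPM) and cluster 14 on Days 7 and 14 (70.2 and 22.5) for *Ms4a6b*. For *Ms4a6d* they were clusters 14 (54.7) and 12 (85.8) on Day 14. The other clusters with at least 50 cells had higher values than cDC2-like cells, but not all beyond counting error. For *Ms4a6b* on Day 3, the intervals of clusters 7 (318 CPM, 303 to 334) and 12 (327, 231 to 449) included the cDC2-like value. Cluster 7 held 47.4% of the class that day. For *Ms4a6d* this was so in cluster 12 on Day 3 (284, 196 to 399) and cluster 0 on Day 14 (131, 87.2 to 190).

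Other dendritic cells were mostly lower for these genes. Mature dendritic cells (*Ccr7*, *Ccl22*) had 79.3, 48.6 and 25.1 CPM of *Ms4a4c* on the 3 days and 102, 71.7 and 31.4 CPM of *Ms4a6c*. The mix of their sub-clusters differed by day. Sub-cluster 11 gave 45, 205 and 15 cells and sub-cluster 20 gave 2, 59 and 57, with 68.8 and 6.98 CPM of *Ms4a4c* over the 3 libraries summed. In cDC1-like cells *Ms4a6c* was at 397 CPM (286 to 537) in the 13 cells of Day 3, 176 CPM on Day 7 and 62.3 CPM on Day 14. T cells carried *Ms4a6b*, with 132 CPM (94.4 to 180) in the Day 7 library and 67.3 CPM (42.2 to 102) a week later, and in the same cells *Ms4a6c* had 10 UMIs (33.0 CPM) on Day 7 and 0 on Day 14. The T cells of the 2 days were of different make-up. The sub-cluster with *Trdc*, which had 0 UMIs of *Ms4a6b*, gave 2 of 148 T cells on Day 7 and 65 of 169 on Day 14, and the part of this in the *Ms4a6b* values was not tested. Fibroblast-like cells, which are not known for these genes, held 0.41 to 11.5 CPM of *Ms4a4c*, *Ms4a6b*, *Ms4a6c*, *Ms4a6d* and *Ms4a7* over the 3 days. They had more UMIs per cell than the immune classes (a median of 10023 on Day 7 against 2524 in macrophage-like, 1417.5 in lymphoid and 710 in neutrophil-like cells), so their CPM is no upper limit for RNA from other cells in those classes.

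**Figure D2:**
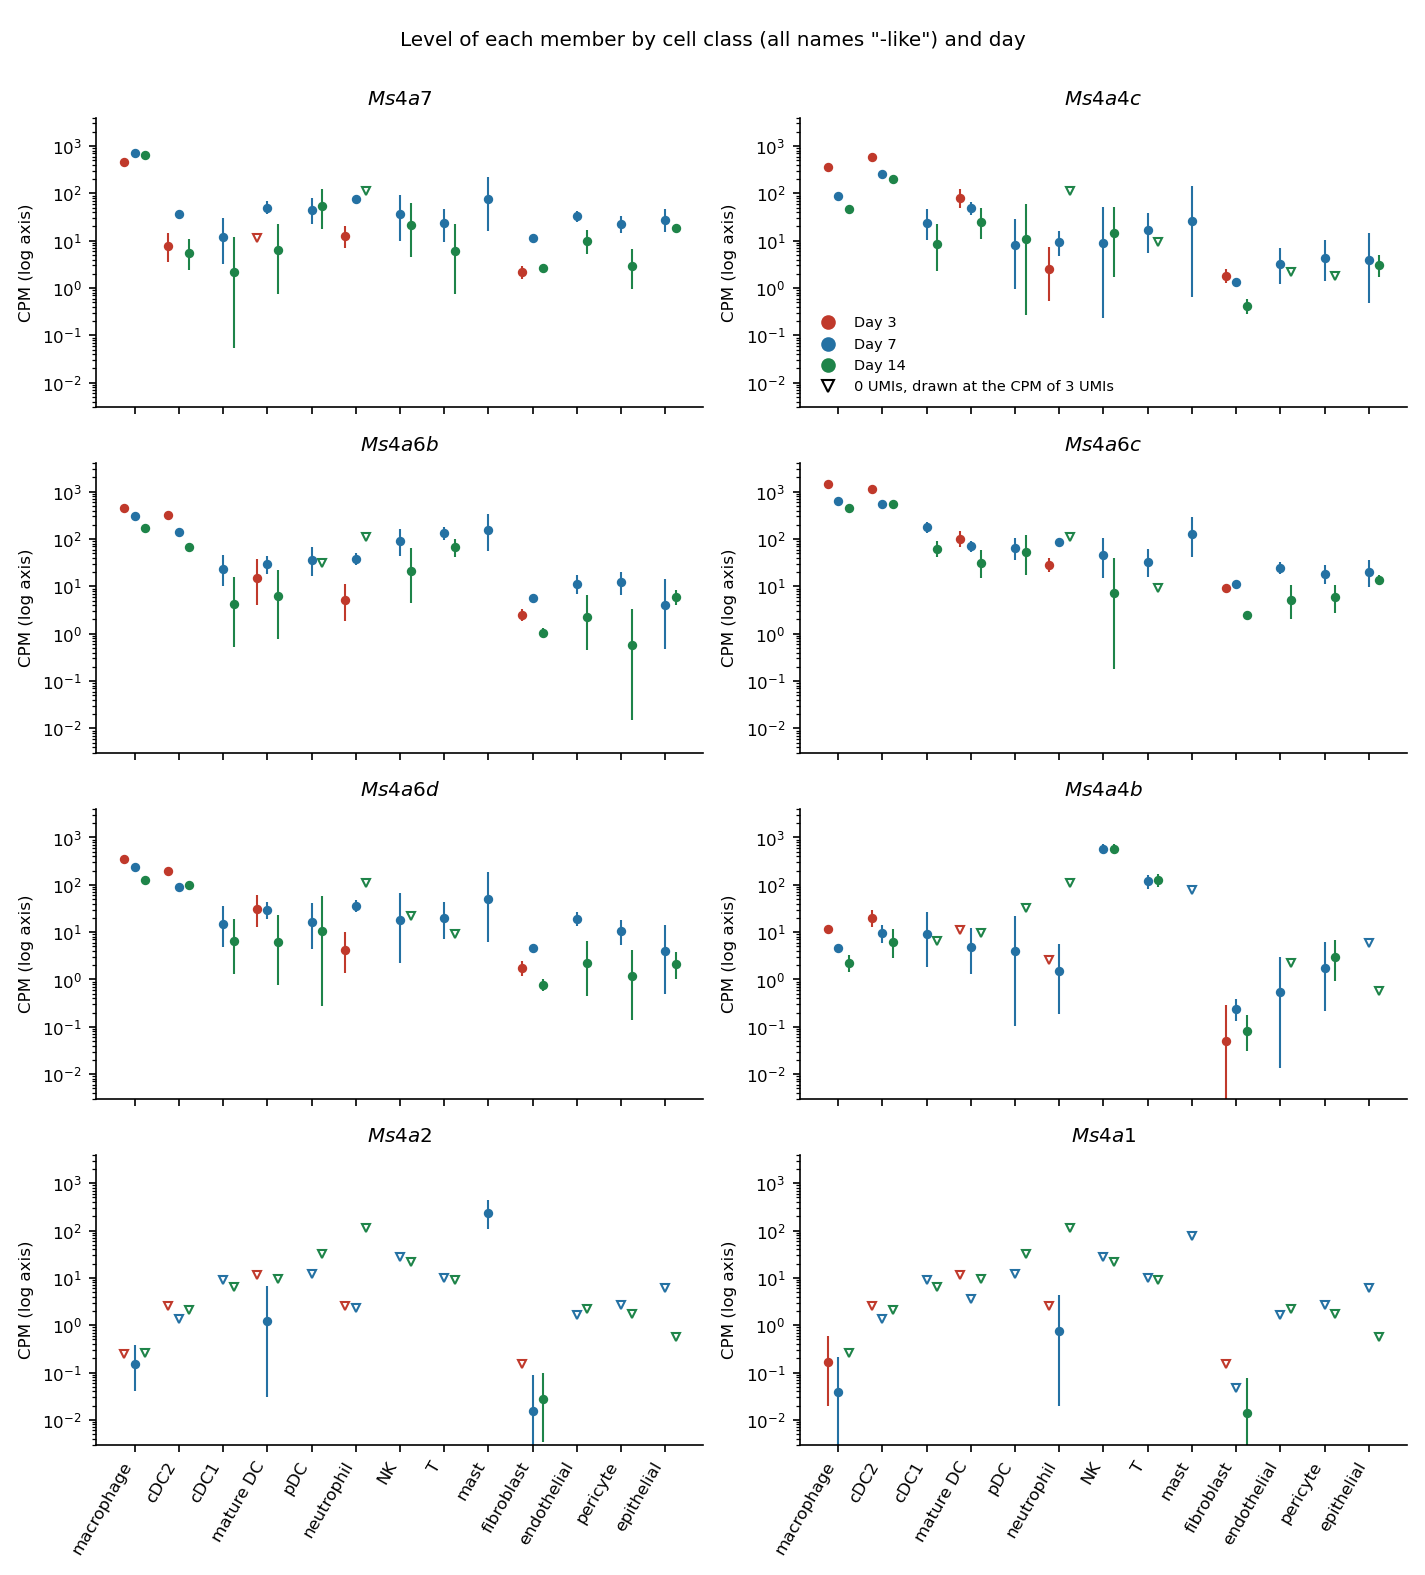
CPM of each member (log axis) by cell class for Days 3, 7 and 14. Points are 1 library each with exact Poisson 95% intervals, classes under 20 cells are left out, and open triangles mark 0 UMIs, drawn at the CPM of 3 UMIs. *Ms4a7* is highest in macrophage-like cells and *Ms4a4c* in cDC2-like cells on each day. *Ms4a6c* is highest in macrophage-like cells on Days 3 and 7 and in cDC2-like cells on Day 14. *Ms4a4b* is highest in NK cells on Days 7 and 14.

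*Ms4a7* was higher in macrophage-like than in cDC2-like cells. It was at 456 CPM (444 to 468), 705 (695 to 715) and 632 (618 to 647) in macrophage-like cells on Days 3, 7 and 14, and at 7.79 (3.56 to 14.8), 36.6 (29.1 to 45.4) and 5.48 (2.36 to 10.8) in cDC2-like cells. The ratio was 58.5-fold on Day 3, 19.3-fold on Day 7 and 115-fold on Day 14. Plasmacytoid dendritic cells were second on Day 14, with 53.1 CPM (17.2 to 124) from 5 UMIs in 26 cells, near the 57.9 CPM (49.8 to 66.8) of cluster 14, which held 18.3% of the macrophage-like class that day. The fibroblast-like cells of Day 7 held 11.5 CPM of *Ms4a7* against 2.13 and 2.63 CPM on Days 3 and 14, and their values are given because the cDC2-like value of Day 7 was also the highest of the 3. After thinning to 500 UMIs, 17.5%, 24.9% and 24.6% of macrophage-like cells had a UMI of *Ms4a7* (51.5%, 61.0% and 61.9% before thinning), against 1.47% and 0.625% of cDC2-like cells on Days 7 and 14. On Day 3 it was 0 of 153 cDC2-like cells, where a count of 0 leaves room for up to 1.96% with a UMI at the thinned depth (3 cells of 153, or 2.38% by the exact interval), and 3.92% had one before thinning. The genes with the most similar pattern were *C1qb* (r = 0.88), *C1qc* (0.85) and *C1qa* (0.84), the complement C1q chains of tissue macrophages, which were themselves among the macrophage markers.

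Over the sums of a class and a day, *Ms4a4c*, *Ms4a6c* and *Ms4a6d* had similar patterns. *Ms4a6c* was closest to *Ms4a6d* (r = 0.95), *Ms4a4c* (0.92) and *Clec4a1* (0.90), a lectin of monocytes and macrophages. *Ms4a6d* was closest to *Ms4a6c*, *Clec4a1* (0.92) and *C3ar1* (0.90), the receptor of complement C3a, and *Ms4a4c* to *Ms4a6c* (0.92), *Ms4a6d* (0.86) and *Clec4a1* (0.85). *Ms4a6b* had *Ap1b1* (0.81), *Mast3* (0.80) and *Otulinl* (0.80) as its nearest genes over these sums. Over the 8 clusters of macrophage-like cells, however, it had r = 0.93 with *Ms4a6c* and 0.89 with *Ms4a6d*, where *Ms4a4c* and *Ms4a6d* had 0.63. Of the exact 50-base stretches in the last 500 bases of their transcripts, *Ms4a6c* shared 7.76% with any other gene, *Ms4a6b* among them, and *Ms4a6b* shared 4.31%, with *Ms4a6c* and *Ms4a6d* among the other genes. The last 500 bases of *Ms4a6d* and *Ms4a7* held no stretch of that length found in another gene.

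Over the days, the myeloid members moved apart in macrophage-like cells. Between Day 3 and Day 7, *Ms4a4c* went from 356 to 88.2 CPM, a log2 ratio of -2.01, *Ms4a4b* had -1.32 and *Ms4a6c* -1.15. *Ms4a6b* and *Ms4a6d* had smaller ratios of -0.60 and -0.56, and *Ms4a7* had a ratio of 0.63 in the other direction. Of the 6 members with at least 50 UMIs over both libraries, 3 were at least 2-fold lower and 0 at least 2-fold higher on Day 7, where 4.75% of 11019 genes were lower and 8.62% higher by that measure. The members' median log2 ratio was -0.87, beside -0.03 over all genes. Between Day 7 and Day 14 the ratios were -0.89 for *Ms4a4c*, -0.82 for *Ms4a6b*, -0.53 for *Ms4a6c*, -0.90 for *Ms4a6d*, -1.06 for *Ms4a4b* and -0.16 for *Ms4a7*. Only *Ms4a4b*, with 26 UMIs on Day 14, was at least 2-fold lower, 1 of 6 and 0 higher, where 5.8% of 11204 genes were lower and 3.62% higher, and the medians were -0.86 and -0.15. That count was 0 to 3 over other settings, and the *Ms4a7* ratio turned to 0.17 at a cluster resolution of 0.5. The rule for the members had used these contrasts, so nothing is read from the counts. In the same cells the 8 fibroblast markers summed to 424, 3804 and 5332 CPM on Days 3, 7 and 14, with a UMI of every marker on each day. The 10 neutrophil markers summed to 1503, 459 and 264 CPM. The part of these shifts in the ratios was not tested.

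**Figure D3:**
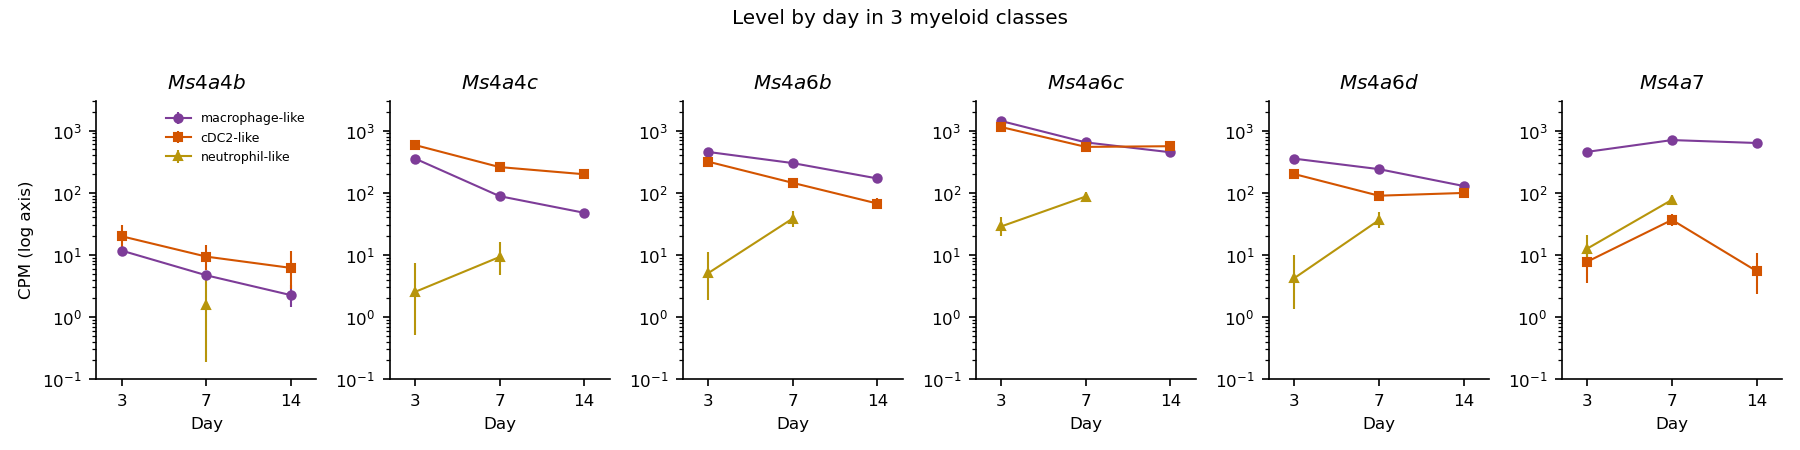
CPM (log axis) of 6 members by day in macrophage-like, cDC2-like and neutrophil-like cells, 1 library per day, with exact Poisson 95% intervals. Values with 0 UMIs are not drawn. *Ms4a4c* goes from 356 to 47.6 CPM in macrophage-like cells, while *Ms4a7* stays between 456 and 705 CPM.

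Thinned cells gave the same order of days for *Ms4a4c*, with a UMI in 12.7% (11.4% to 14.0%), 4.55% (4.14% to 4.99%) and 2.19% (1.70% to 2.77%) of macrophage-like cells, against 46.1%, 14.5% and 10.8% before thinning. For *Ms4a6c* the thinned shares were 44.8% on Day 3, 2507 of 9443 cells on Day 7 and 19.1% on Day 14. For *Ms4a6b* they were 17.7%, 14.0% and 8.43% on the 3 days, and for *Ms4a6d* 15.5%, 11% and 6.76%. Fibroblast-like cells had at most 1.19% for any of these genes. In cDC2-like cells *Ms4a4c* was found in 23.5%, 12.9% and 8.12% and *Ms4a6c* in 44.4%, 24.3% and 20.6%. Within macrophage-like cells of Day 3, *Ms4a6c* was found in 63.6% of the cells with a UMI of *Ms4a4c* and in 42.1% of the others, and on Day 7 in 45.6% and 25.6%. *Ms4a7* was found in 17.2% (13.8% to 21.1%) of *Ms4a4c*-positive cells and 25.3% (24.4% to 26.2%) of the others on Day 7, but in 21.6% (17.3% to 26.3%) and 16.9% on Day 3.

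In cDC2-like cells, the ratios between Days 3 and 7 of *Ms4a4c*, *Ms4a6b*, *Ms4a6c* and *Ms4a6d* lay close to each other. The log2 ratios were -1.18 (-1.34 to -1.02) for *Ms4a4c*, -1.13 for *Ms4a6b*, -1.06 for *Ms4a6c* and -1.16 for *Ms4a6d*, beside -2.01, -0.60, -1.15 and -0.56 in macrophage-like cells. Between Days 7 and 14, *Ms4a6c* was at 0.04 (-0.09 to 0.16) and *Ms4a6d* at 0.15, while *Ms4a4c* was at -0.38 and *Ms4a6b* at -1.11. Different sub-clusters made up the class on the 3 days. In CPM over the 3 libraries summed, sub-cluster 18, which held 134 of the 153 cells of Day 3, had 628 CPM of *Ms4a4c*, sub-clusters 12, 13 and 14 held most cells of Day 7 with 281, 342 and 157 CPM, and sub-clusters 16 and 17 held most of Day 14 with 165 and 233 CPM. The summed CPM of 8 monocyte markers in this class was 3067, 1545 and 545 on the 3 days, of 8 fibroblast markers 390, 3045 and 3630, and of 10 neutrophil markers 2480, 833 and 268. Their part in the ratios was not tested.

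The macrophage-like class was itself made of 8 clusters whose shares differed between days. On Day 3, cluster 7 (leading genes *Arg1*, *Ppbp*) and cluster 15 (*Ly6c2*, *Rsad2*, *Chil3*) held 47.4% and 31.8% of the class. Day 7 was led by cluster 0 (*Cd36*, *Trem2*) with 2788 cells (29.5%) and cluster 3 (*Ly6c2*, *Cx3cr1*, *Ccr2*) with 1982 cells. Day 14 was led by cluster 4 (*Slamf7*, *Il10*) with 44.3%, cluster 2 (*Cd163*, *Lyve1*, *Folr2*) with 21.9% and cluster 14 (*Retnla*, *Ear2*) with 18.3%. Clusters 15 and 3 scored highest for the monocyte list, the other 6 for the macrophage list. The scores of cluster 3 were close, at 5.70 for the monocyte list and 5.58 for the macrophage list.

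*Ms4a4c* differed widely among these clusters. On Day 7 it reached from 21.2 CPM in cluster 12 to 641 CPM in cluster 15, a 30.2-fold range over 8 clusters, and on Day 3 from 38.9 CPM in cluster 0 to 654 CPM in cluster 15, or 16.8-fold. *Ms4a6c* ranged 4.49-fold and *Ms4a6d* 3.87-fold on Day 7, both with cluster 14 lowest and cluster 15 highest. *Ms4a7* also had its lowest value in cluster 14 (200 CPM on Day 7 and 57.9 CPM on Day 14) but its highest in cluster 4 on Day 7 (895 CPM). On Day 14 the ranges were 15.2-fold for *Ms4a4c*, 15.7-fold for *Ms4a6b*, from 22.5 CPM in cluster 14 to 353 CPM in cluster 3, and 17.3-fold for *Ms4a7*. Over the 20 points of a cluster and a day with at least 50 cells, *Ms4a4c* went with the summed CPM of the monocyte markers (r = 0.82, Spearman rho = 0.77 on the log2 scale), as *Ms4a6c* did less closely (0.64 and 0.74), whereas *Ms4a7* had r = -0.36 (rho = -0.58). The points are not independent, because they share 3 libraries and 8 clusters made from the same cells.

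**Figure D4:**
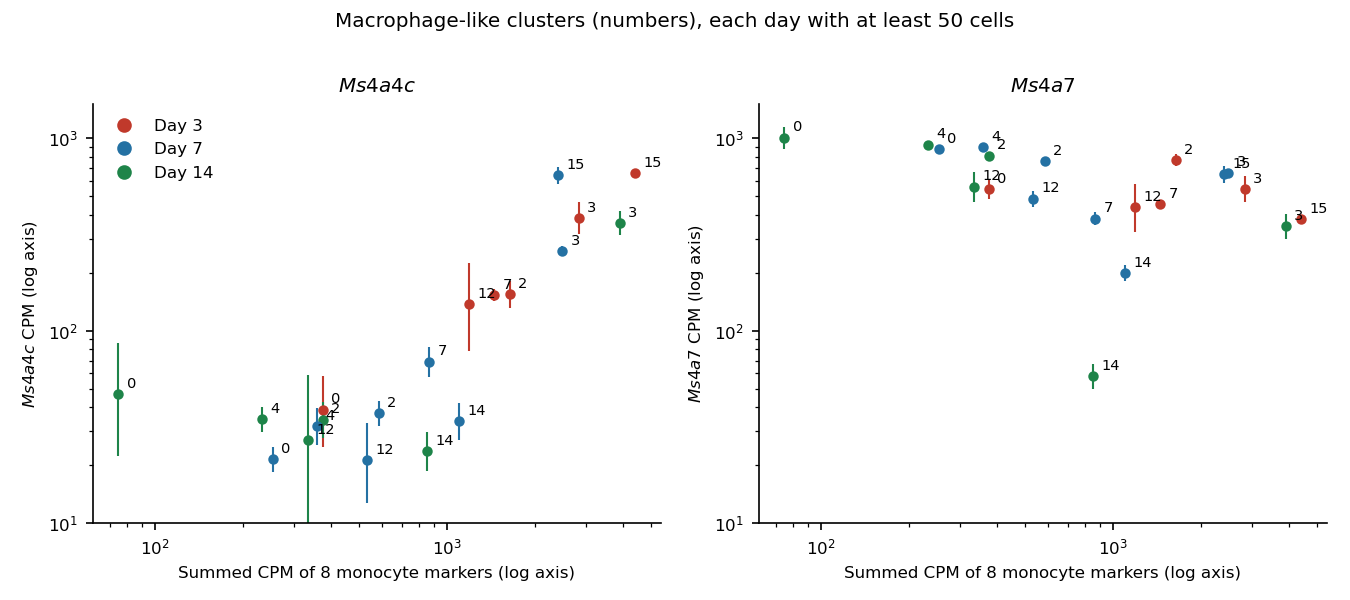
CPM of *Ms4a4c* (left) and *Ms4a7* (right) against the summed CPM of 8 monocyte markers, both on log axes, for 20 points of a macrophage-like cluster (number) and a day (colour), with exact Poisson 95% intervals. Clusters 15 and 3 are highest for the monocyte markers and for *Ms4a4c*, and cluster 14 is lowest for *Ms4a7*.

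Within single clusters, the ratios between days were mostly closer to 0 than over the class. For *Ms4a4c*, Day 7 against Day 3, the interval lay below 0 in 5 of 6 clusters with at least 100 cells in both libraries, from -2.70 in cluster 12 to -0.57 in cluster 3, and included 0 in cluster 15 (-0.03, from -0.19 to 0.12), the cluster with the most *Ms4a4c*. The median over the 6 clusters was -1.0, against -2.01 for the class. *Ms4a6c* was below 0 in 6 of 6 clusters, with a median of -0.79. For *Ms4a7* the intervals lay above 0 in 3 clusters (0.77 in cluster 15, 0.70 in cluster 0 and 0.28 in cluster 3), below 0 in 1 (-0.25 in cluster 7) and included 0 in 2. Between Days 7 and 14, *Ms4a6b*, *Ms4a6c* and *Ms4a6d* were below 0 in 5 of 5 clusters each, whereas *Ms4a4c* was above 0 in cluster 3 (0.48, from 0.25 to 0.71) and below 0 in cluster 14 alone. *Ms4a7* had -1.79 (-2.04 to -1.54) in cluster 14 and -0.92 in cluster 3, beside 0.10 in cluster 2 and 0.04 in cluster 4. Cluster 12 had the fewest UMIs per cell of the 8 relative to its libraries, and was also the cluster with the most fibroblast-marker UMIs on each day (1214, 8944 and 13754 CPM).

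**Figure D5:**
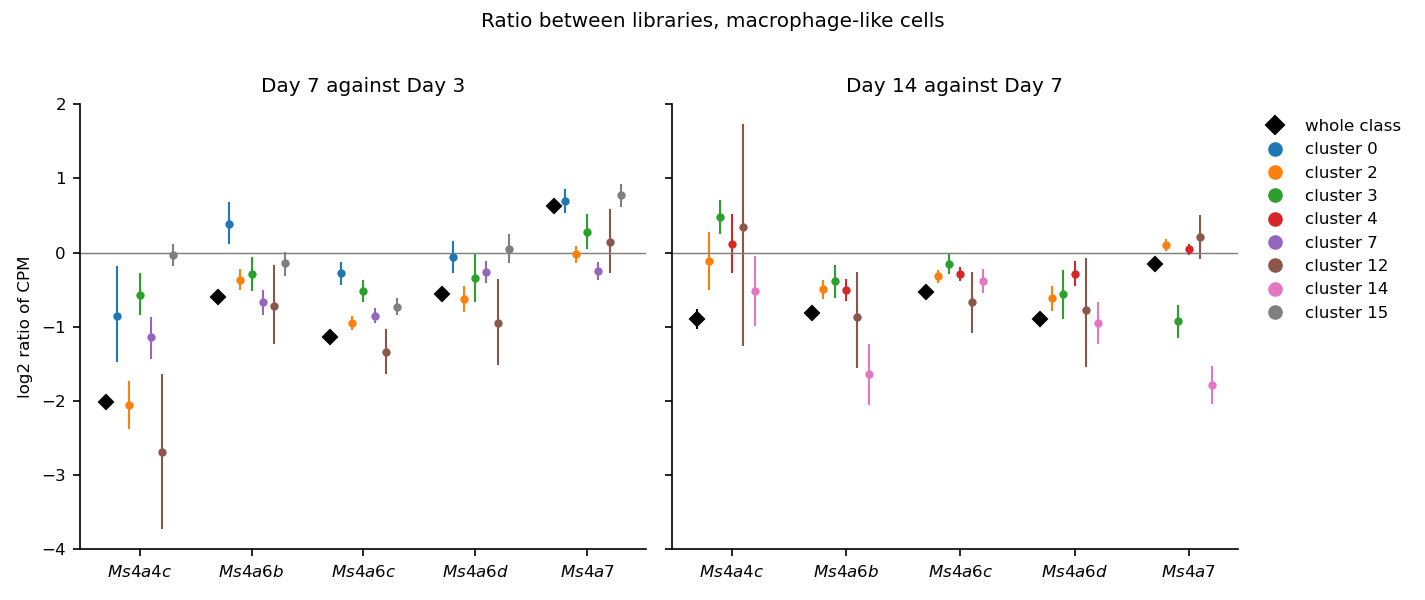
log2 ratio of CPM between libraries in macrophage-like cells for 5 members, Day 7 against Day 3 (left) and Day 14 against Day 7 (right). Diamonds are the whole class and circles its clusters with at least 100 cells in both libraries, with exact 95% intervals for counting error. *Ms4a4c* is at -2.01 over the class and at -0.03 in cluster 15, and *Ms4a7* in cluster 14 is at -1.79 on the right.

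Genes linked to the family by function or cell type gave the setting in macrophage-like cells. Of 31 such genes measured, 24 had at least 50 UMIs over Days 3 and 7, and 8 were at least 2-fold lower and 5 at least 2-fold higher on Day 7, beside 4.75% and 8.62% of all genes tested. The 8 were the monocyte genes *Ly6c2*, *Ccr2*, *Plac8* and *Chil3* and the interferon-stimulated genes *Isg15*, *Ifit2*, *Irf7* and *Rsad2*. *Ccr2*, the chemokine receptor of monocytes, was at 1144, 487 and 364 CPM on the 3 days and *Rsad2* at 390, 80.1 and 29.9 CPM. The 5 were *C1qb*, *C1qc*, *Cd163*, *Lyve1* and *Cd4*. *C1qb* went from 775 to 1659 and 3330 CPM. On Day 14 against Day 7, 4 of 24 were lower (*Ly6c2*, *Chil3*, *Ifit2* and *Rsad2*) and 4 higher (*Cd4*, *C1qb*, *Tmem176a* and *Tmem176b*), beside 5.8% and 3.62% of all genes tested. *Tmem176b*, which like the Ms4a genes encodes a protein that spans the membrane several times, was at 79.1, 150 and 698 CPM. The monocyte markers together summed to 2644, 910 and 596 CPM and the macrophage markers to 13743, 17461 and 23774 CPM in this class on the 3 days.

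Neutrophil-like cells held little of any member. *Ms4a6c* went from 28.6 CPM (34 UMIs) on Day 3 to 87.0 CPM (71.7 to 105) on Day 7, and *Ms4a7* from 12.6 CPM (7.07 to 20.9) to 77.0 CPM (62.6 to 93.6). *Ms4a6b* went from 5.06 to 38.5 CPM and *Ms4a6d* from 4.21 to 36.2 CPM, so all 4 were higher on Day 7, beyond counting error. The cells of the 2 days lay in different clusters, with 786 of 874 cells of Day 3 in cluster 17 and 1566 of 1649 cells of Day 7 in cluster 8, so day and cluster cannot be told apart in these values. In the same cells *C1qa* went from 41.3 to 279 CPM, *Mrc1* from 12.6 to 166 CPM and the summed fibroblast markers from 839 to 10416 CPM, while the 11 macrophage markers summed to 6726 and 5456 CPM. The median UMIs per neutrophil-like cell were 1226.5 and 710. The part of RNA from other cells in these values was not tested. On Day 14 the 21 neutrophil-like cells had no UMI of any member. With a median of 1018 UMIs, they are too few for a count of 0 to be set against the Day 7 levels.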

How the data were processed

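Single-cell RNA-Seq of mouse wound tissue was made with the Chromium 3′ chemistry. The authors deposited raw UMI counts per gene and barcode, 1 library per day, and only these counts were used here. The submitters' processing notes name Cell Ranger 6.0.0 and mm10. Depth was 38133650 UMIs over 5158 barcodes for Day 3, 120940799 over 22924 for Day 7 and 112713257 over 16611 for Day 14.

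Kept cells had 200 or more genes, 500 or more UMIs and a mitochondrial share of 10% or less. Cells were scored against simulated doublets, and the 92, 1978 and 962 cells with the highest scores (2.07%, 9.17% and 6.65%) were removed. These numbers were set beforehand, as a share of 0.5 of the doublets expected at 0.8% per 1000 barcodes. Doublets can therefore remain among the cells used. All libraries were clustered together without alignment, on 2000 variable genes and 30 components (Leiden, leidenalg 0.10.2, resolution 1), with no Ms4a gene used, into 38 clusters, and the dendritic and lymphoid ones again into 26 sub-clusters. Clusters were named from fixed markers (at least 3), with the scoring rule, not the markers, adjusted after the clusters were seen. Unnamed clusters held 4, 114 and 107 cells on the 3 days.

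CPM came from the sum of UMIs over the cells of a class in 1 library. Poisson, binomial and Clopper-Pearson 95% intervals were exact (scipy 1.17.1) and cover counting error only. Of these, only the binomial intervals of ratios between days in macrophage-like cells were checked on simulated data. Those counts were drawn as Poisson, so the check does not show how the intervals cover real cells. A member counted as higher or lower past 2-fold with at least 50 UMIs in both libraries together, and a fold is not given where a class had 3 UMIs or fewer. Shares of cells were thinned to 500 UMIs, and no cell fell below that. With 1 library per day no test between days was possible.

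Named genes were the members, all other genes whose symbol begins with Ms4a, the 3 genes most like each member and a fixed list of linked genes, 31 of which were analysed here. The members and lists were chosen with earlier results of these data known. Coordinates and shared stretches came from GENCODE M21 on GRCm38, and promoters from RefSeq on GRCm38.p6. Genes on the opposite strand overlap *Ms4a1*, *Ms4a4c*, *Ms4a6b* and *Ms4a6c*, so their counts rest on the strand setting of the counting, which is not given in the sources used here. Alternatives were other mitochondrial limits, cluster resolutions, scaling, naming of clusters and thinning.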

Additional observations from a re-analysis of the deposited data

Results flagged for a closer look

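Between Days 3 and 7, 3 members had log2 ratios of opposite sign in neutrophil-like cells and in the other myeloid classes. *Ms4a6b* was at 2.93 in neutrophil-like, -0.60 in macrophage-like and -1.13 in cDC2-like cells. *Ms4a6c* was at 1.60, -1.15 and -1.06 in the same order, and *Ms4a6d* at 3.1, -0.56 and -1.16. The neutrophil-like cells lay mostly in cluster 17 on Day 3 (786 of 874 cells) and in cluster 8 on Day 7 (1566 of 1649 cells). With 1 library per day the difference between classes was not tested.

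Barcodes left out of the classes (those that failed a filter or were called doublets) also held UMIs of the members, 143 of *Ms4a4b*, 1067 of *Ms4a4c*, 2884 of *Ms4a6b*, 6673 of *Ms4a6c*, 2161 of *Ms4a6d* and 6066 of *Ms4a7*, each above the 3 UMIs that a count of 0 allows.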

How the results depend on the processing

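Of 88 values of the counts of members, 82 were within 1.5 times the reported count and 6 were not, all of them for members at least 2-fold lower on Day 14 than on Day 7 (reported as 1). That count was 0 with up to 20% mitochondrial UMIs, with resolution 0.5 and with clusters left out whose leading genes pointed to another class, 2 with each library clustered alone and with the mean of each cell's CPM, and 3 without the 50 most abundant genes. Leaving out those clusters was chosen after seeing the data. Of 886 levels 168, and of 92 shares of cells 46, moved beyond their counting interval. Of 144 log2 ratios, 40 moved beyond it and 2 reversed, both for *Ms4a7* on Day 14 against Day 7 (reported as -0.16), with 0.17 at resolution 0.5 and 0.12 without those clusters. With called doublets kept, the clusters were not the same in every run, and in 1 run the *Ms4a7* ratio was above 0 there too. Over the alternatives, Day 7 against Day 3, *Ms4a4c* ranged from -2.40 to -1.71 and *Ms4a7* from 0.56 to 0.90. Scaling without the 50 most abundant genes shifted every log2 ratio by 0.27 for Day 7 against Day 3 and by -0.11 for Day 14 against Day 7. The cause of these shifts was not tested. No paired analysis was possible because each day is 1 library, and no replicate could be left out. *Ms4a1* (16 UMIs) and *Ms4a2* (55 UMIs) had too few UMIs for most comparisons, with 2, 33 and 19 mast cells on the 3 days.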
